A study of Mus musculus with 12 samples.

Results

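The endocannabinoid system was described through 8 genes: the cannabinoid receptor CB1 (Cnr1), the enzymes that make the lipid ligands 2-arachidonoylglycerol (2-AG) and anandamide (Dagla, Daglb and Napepld), and the enzymes that break them down (Mgll, Abhd6, Abhd12 and Faah). They were taken by gene name, and all 8 were found at each of the 3 time points among 40508 gene names in the tables. Poly(A) RNA was sequenced from the prefrontal cortex of male C57BL/6 mice (C57BL/6J in the methods) aged 10 weeks. Cocaine (20 mg/kg per day) or saline, the labelled control, was injected intraperitoneally for 14 days, and tissue was collected once the injections had ended, at 2 h, 24 h or 7 d, each time with its own saline mice. This gave 6 groups (saline and cocaine at each time) of 2 libraries, and each library held the pooled cortex of 5 mice. The dissection took the front of the brain as one piece, with frontal association, prelimbic and orbital cortex together. The tables hold a single FPKM for each group (fragments counted per length of transcript and per size of the library), pooled over its libraries. Therefore no spread between libraries can be given, no test was made, and the depth behind each value is unknown. Every ratio below is cocaine over saline of these group values.

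Endocannabinoids are made on demand from membrane lipids, most often in the postsynaptic neuron, and travel backwards across the synapse to CB1 on the axon terminal, where they lower transmitter release. 2-AG is cut from diacylglycerol by the diacylglycerol lipases and broken down by monoacylglycerol lipase and the serine hydrolases ABHD6 and ABHD12. Anandamide is made by routes that include the phospholipase NAPE-PLD and is broken down by fatty acid amide hydrolase. In the cortex CB1 is densest on terminals of cholecystokinin interneurons and is also present on those of excitatory neurons.

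In short, none of the 8 genes was 25% or more above saline, or 20% or more below it, under cocaine at any time point. The highest ratios were those of Dagla and Abhd6 at 2 h (1.23 and 1.21) and of Faah at 24 h (1.18), and the lowest was that of Mgll at 24 h (0.913). Both limits are the same fold in the 2 directions. Of the measured genes, which are those with a name, a mean of 1 FPKM or more and both values above 0, 7.09% were past the upper limit and 5.32% past the lower one at 2 h. At 24 h these shares were 3.93% and 3.38%, and at 7 d 5.33% and 7.8%. Beside such shares, 0 of 8 genes in either direction is not a result about the members. A lower group value in tissue of mixed cells can come from fewer cells of a type or from less RNA per cell, which cannot be told apart here.

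The genes lie on 6 chromosomes, and the positions in the tables are those of GRCm38, counted here from 1. Cnr1 spans 33924593 to 33948831 of chromosome 4, and Faah 115967145 to 116017926 of the same chromosome. The Faah locus of the tables covers 50782 bp, against 22170 bp of the RefSeq gene, and also overlaps the noncoding gene Gm38492. Its FPKM can therefore hold reads from outside the enzyme's transcript. Dagla spans 10245265 to 10304877 of chromosome 19 and Daglb 143464493 to 143504442 of chromosome 5. Napepld is on chromosome 5 at 21662901 to 21701396, Mgll on chromosome 6 at 88716424 to 88828364, Abhd6 on chromosome 14 at 8002902 to 8056720 and Abhd12 on chromosome 2 at 150832401 to 150904741. These are the loci at 2 h. Those at 24 h were the same, and at 7 d some ends differed slightly. The Dagla, Mgll and Abhd6 loci overlap long noncoding genes (Gm30042, Gm26588, and Gm30244 with Gm41094), Napepld a miRNA gene and a pseudogene (Gm51277 and Gm15719), and Abhd12 a snoRNA gene (Gm23598). Because the library kit does not mark strand, reads of overlapping genes cannot be told apart. At 24 h a second short locus of 963 bp carried the name Abhd6, just past the end of the gene, with 1.66 FPKM with saline and 1.62 with cocaine, and was not added to the gene's value.

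Start-site sequence was at hand for 6 of the 8 genes in RefSeq (GRCm38.p6), in 10 windows of 300 bases that run from 250 before to 50 after a start. These windows were searched on both strands for the cAMP response element (TGACGTCA, and its short form TGACG), 2 forms of the EGR site (GCGTGGGCG and GCGGGGGCG), AP-1 (TGACTCA), the E-box (CACGTG), the Sp site (GGGCGG) and the CArG box of the serum response element. The short form lies inside each full one, and the EGR and Sp letters can overlap. The factors of the first sites follow neuronal activity, which is the reason for showing them. Faah, Mgll and Abhd6 are shown, a choice made after the matches had been counted: Faah and Mgll because they held the only EGR sites of the 10 windows and Abhd6 because it was among the genes with the highest ratio at 2 h. Matches are in capitals, each sequence reads towards the gene, and the windows are chr4:116017875-116018174 (minus strand), chr6:88724162-88724461 and chr14:8002638-8002937 (plus strand).
Faah: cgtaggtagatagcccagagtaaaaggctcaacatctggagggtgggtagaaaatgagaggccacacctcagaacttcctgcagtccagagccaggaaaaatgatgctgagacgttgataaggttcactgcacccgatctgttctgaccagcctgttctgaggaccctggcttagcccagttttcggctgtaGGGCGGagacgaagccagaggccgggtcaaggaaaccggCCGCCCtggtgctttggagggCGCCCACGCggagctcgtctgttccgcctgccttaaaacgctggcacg
Mgll: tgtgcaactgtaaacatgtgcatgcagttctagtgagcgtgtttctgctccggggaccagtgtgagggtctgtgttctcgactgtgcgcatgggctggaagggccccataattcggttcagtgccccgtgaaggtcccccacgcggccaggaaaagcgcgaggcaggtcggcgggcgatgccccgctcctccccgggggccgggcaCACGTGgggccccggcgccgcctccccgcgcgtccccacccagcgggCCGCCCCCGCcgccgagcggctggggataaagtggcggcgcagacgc
Abhd6: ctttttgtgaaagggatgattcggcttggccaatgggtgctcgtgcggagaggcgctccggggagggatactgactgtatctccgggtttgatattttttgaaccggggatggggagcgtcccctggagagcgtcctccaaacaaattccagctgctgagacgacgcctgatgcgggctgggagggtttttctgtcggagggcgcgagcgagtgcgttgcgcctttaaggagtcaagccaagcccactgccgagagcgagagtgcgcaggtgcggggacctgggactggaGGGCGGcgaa

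The Faah window held 1 EGR site of the first form, found in 0.612% of all 32851 windows, and 2 Sp sites, found in at least 1 copy in 35.7%. In the Mgll window were 1 EGR site of the second form (2.91% of all windows), which overlaps an Sp site, and 1 E-box (7.15%). Abhd6 held 1 Sp site, and the first window of Cnr1 held 5. Neither a full cAMP response element (1.79% of all windows) nor an AP-1 site (5.2%) nor a CArG box (1.63%) was among the letters of the 10 windows, and the short form (20.8%) was found once, in the second window of Mgll. A match is a description of the letters and not a site in use.

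**Figure D1:**
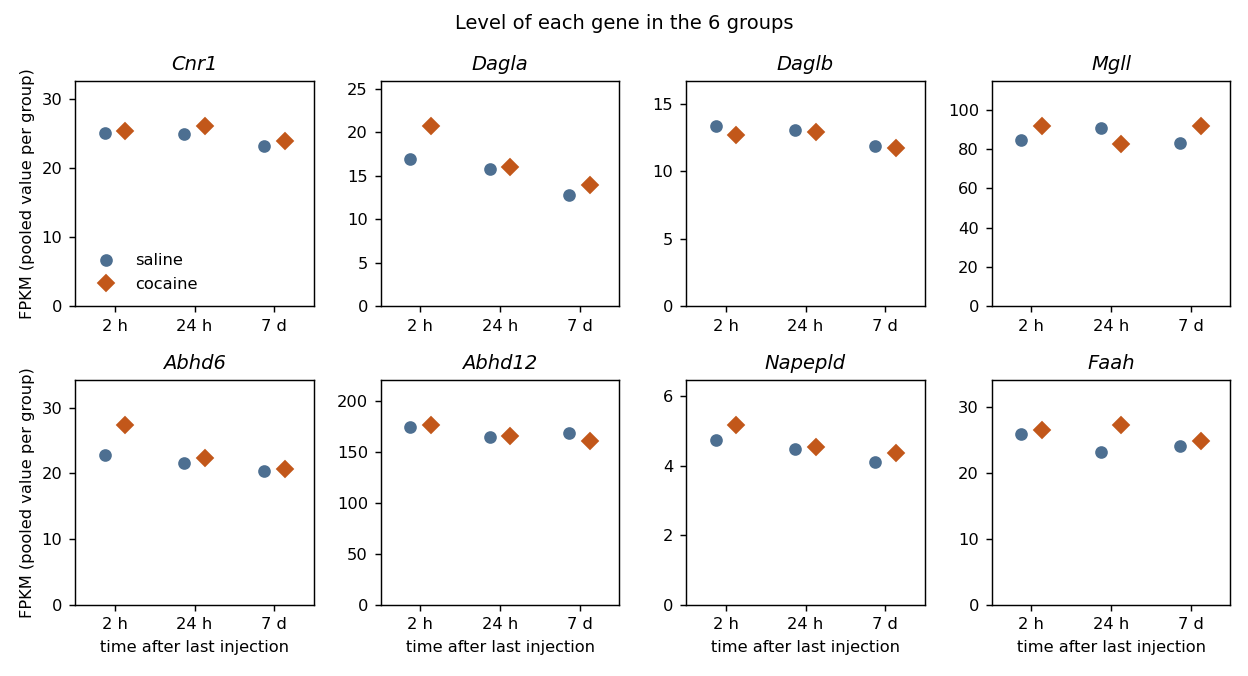
Pooled FPKM of each of the 8 genes (vertical axes, each from 0) in saline (circles) and cocaine (diamonds) groups at 2 h, 24 h and 7 d; there are no error bars because each point is 1 deposited value over 2 libraries. Dagla and Abhd6 show the widest gap at 2 h (16.9 against 20.7 and 22.7 against 27.4 FPKM), Faah at 24 h (23.2 against 27.3), and Mgll lies on the other side of saline at 24 h.

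Cnr1, the gene of the receptor through which 2-AG and anandamide act on nerve terminals, had nearly the same level in all groups. Its FPKM was 25.1 with saline and 25.4 with cocaine at 2 h, 24.9 and 26.1 at 24 h, then 23.2 and 24.0 at 7 d. The log2 ratios were 0.02, 0.07 and 0.05, at percentiles 48.1, 68.3 and 62.6 of the ratios of all measured genes. Cocaine was thus above saline at each time by at most 4.8%, which is less than the distance between the lowest and highest saline group (0.11 on the log2 scale). At 2 h the sign depends on the scale: it turned negative when the median ratio of all genes, 0.02, was taken away.

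Of the 2 lipases that make 2-AG, Dagla is the one known to supply synaptic 2-AG in the adult brain, whereas Daglb is prominent in microglia and other immune cells. Dagla had 16.9 FPKM with saline and 20.7 with cocaine at 2 h, 15.7 and 16.0 at 24 h, then 12.7 and 13.97 at 7 d. The 2 h value in cocaine was the highest of the 6 groups, 22.6% above its saline group, with a log2 ratio of 0.29 at percentile 91.5 of all measured genes. It lay within the central 90% of genes at 2 h, which ran from -0.33 to 0.39. The ratio at 24 h was 0.03, and that at 7 d 0.13. At 7 d the locus carries the status FAIL in the table, meaning that the authors' program could not complete its calculation. It is one of 122 such genes among the 13931 measured there. Both 7 d values of Dagla were the lowest of their treatment. This also held for Cnr1, Daglb, Napepld and Abhd6, whose status at 7 d was OK. The saline groups of Dagla spread by 0.41 on the log2 scale, more than the ratio at any time. The median spread was 0.22 over 13510 genes measured at all times.

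Daglb did not share this pattern. It had 13.3 FPKM with saline and 12.7 with cocaine at 2 h, 13.1 and 12.9 at 24 h, then 11.8 and 11.7 at 7 d, with log2 ratios of -0.08, -0.02 and -0.02. It was the only member with cocaine below saline at all 3 times, by at most 5.2%. Because both lipases are read in the same libraries, their FPKM ratio does not depend on how each table was scaled. Dagla over Daglb was 1.27 with saline and 1.64 with cocaine at 2 h, 1.21 and 1.24 at 24 h, then 1.08 and 1.195 at 7 d. Cocaine was on the higher side each time, and the 2 h cocaine group stood apart from the other 5, which covered 1.08 to 1.27. The FPKM ratio can still follow transcript length, which is 5634 nt for Dagla and 3214 nt for Daglb. At 7 d the median log2 ratios of genes of like length were 0.08 and -0.01, and Dagla carries the status FAIL there. The part of length in the FPKM ratio was not tested.

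Among the enzymes that hydrolyse 2-AG, Abhd12 had the most RNA per length, then Mgll, then Abhd6. In saline at 2 h, Abhd12 made up 61.9% of the summed FPKM of the 3 genes, Mgll 30.0% and Abhd6 8.06%, and over the 6 groups these shares covered 58.9 to 62.0%, 30.0 to 33.5% and 7.47 to 9.26%. Shares of RNA say nothing of enzyme activity: monoacylglycerol lipase is known to carry out most 2-AG hydrolysis in the brain. The sum of the 3 was 282 FPKM with saline and 296 with cocaine at 2 h, 277 and 271 at 24 h, then 272 and 274 at 7 d.

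Abhd6 encodes a hydrolase of the postsynaptic cell that cuts 2-AG near its site of synthesis. Its FPKM was 22.7 with saline and 27.4 with cocaine at 2 h, 21.6 and 22.4 at 24 h, then 20.4 and 20.7 at 7 d. The 2 h cocaine group was the highest by far, 20.6% above its saline group (log2 0.27, percentile 90), while the other 5 groups lay between 20.4 and 22.7. This ratio exceeded the spread of the 3 saline groups, 0.16 on the log2 scale. The same held for Faah at 24 h and for Mgll at 24 h and 7 d, and a spread of 3 pooled values is a rough scale. Later log2 ratios were small, 0.06 at 24 h and 0.02 at 7 d. In the order of the members by level, Abhd6 passed Faah and Cnr1 in cocaine at 2 h and stood behind both in the other 5 groups.

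Mgll encodes monoacylglycerol lipase, which is held by nerve terminals and by astrocytes. Its level was 84.8 FPKM with saline and 91.6 with cocaine at 2 h, 90.6 and 82.7 at 24 h, then 83.0 and 91.8 at 7 d. Cocaine was above saline at 2 h and 7 d (log2 0.11 and 0.14, percentiles 71.3 and 79.7) and below it at 24 h (-0.13, percentile 15.4), and the difference between the time points was not tested. Over the times, saline covered 83.0 to 90.6 FPKM and cocaine 82.7 to 91.8. On the FPKM as deposited, cocaine lay above this saline range at 2 h and 7 d and below it at 24 h. After each group was divided by the median of its genes, the 2 h value no longer lay above. The log2 ratios at 24 h and 7 d (-0.131 and 0.145) were larger in size than the spread of the saline groups, 0.126.

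The ratio of Mgll moved with markers of astrocytes (Aqp4, Gfap, Aldh1l1 and Slc1a3). All 4 were higher in cocaine at 2 h, lower at 24 h and higher at 7 d, and their summed FPKM was 259 with saline and 283 with cocaine at 2 h, 292 and 263 at 24 h, then 251 and 277 at 7 d. Endothelial markers (Cldn5, Pecam1 and Flt1) summed to 57.0 and 63.1, 76.2 and 73.2, and 63.3 and 70.6 FPKM in the same order, with 3, 1 and 3 of 3 genes higher in cocaine. Microglial markers (Cx3cr1, P2ry12, Csf1r and Tmem119) summed to 77.4 and 84.0, 80.3 and 76.2, and 73.7 and 79.4 FPKM, with 3, 1 and 3 of 4 genes higher. The part of these cells in the Mgll values was not tested. Among 13893 genes, the nearest to Mgll over the 6 groups was Abcb1a, an efflux pump of brain endothelium, at a distance of 0.02 on the log2 scale. Trak2 was next, at 0.04. Both were picked for their likeness to Mgll, so their nearness is a description only.

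**Figure D2:**
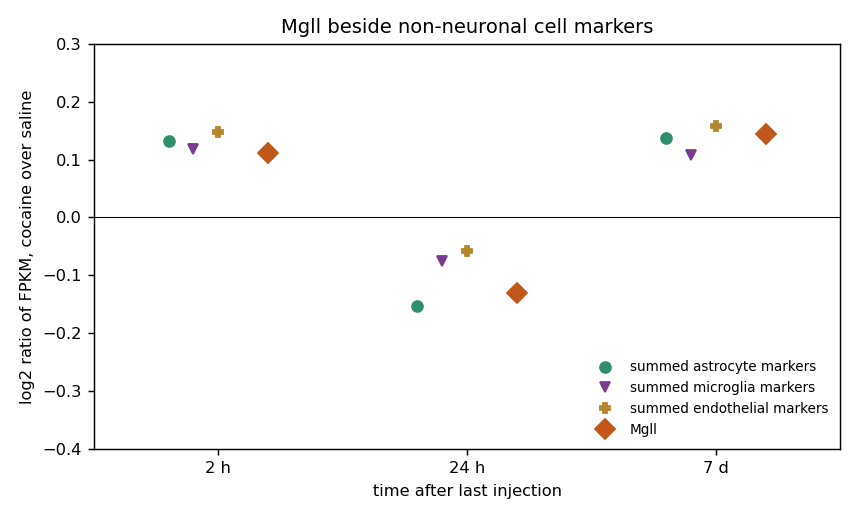
Log2 ratio of cocaine over saline (vertical axis) for Mgll and for the summed FPKM of astrocyte, microglial and endothelial markers at 2 h, 24 h and 7 d (horizontal axis), 1 point per pooled comparison and no error bars. Mgll and the astrocyte, microglial and endothelial sums are above 0 at 2 h and 7 d and below 0 at 24 h.

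Abhd12, known for hydrolysing lysophosphatidylserine and highly expressed in microglia, was the most abundant of the 8 genes and among the steadiest. It had 175 FPKM with saline and 177 with cocaine at 2 h, 165 and 166 at 24 h, then 169 and 161 at 7 d. The log2 ratios of 0.02, 0.01 and -0.07 were all smaller in size than the spread of its saline groups, 0.09.

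For the anandamide branch, Napepld, which releases N-acylethanolamines from their membrane precursors, was the least abundant member. Its FPKM was 4.73 with saline and 5.18 with cocaine at 2 h, 4.48 and 4.53 at 24 h, then 4.10 and 4.35 at 7 d. Cocaine was higher each time, by 9.5%, 1.2% and 6.0%, and the log2 ratios (0.13, 0.02 and 0.08) were all below the spread of the saline groups, 0.20. With the median of genes of like length taken away, the sign at 24 h turned negative (-0.01).

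Faah, which ends anandamide signaling in the postsynaptic neuron, differed most at 24 h. It had 26.0 FPKM with saline and 26.5 with cocaine at 2 h, 23.2 and 27.3 at 24 h, then 24.2 and 24.9 at 7 d. The 24 h pair held both the lowest and the highest of the 6 values. Cocaine was 18.0% above saline there (log2 0.24, percentile 92.8 of all measured genes, whose central 90% ran from -0.27 to 0.29), and 2.2% and 2.8% above it at 2 h and 7 d. The saline groups alone spread by 0.16 on the log2 scale. At 24 h all 4 astrocyte markers were lower in cocaine, the direction opposite to Faah. The 7 genes listed as interneuron markers summed to 1299 and 1311 FPKM, with 5 higher and 2 lower in cocaine. Cck held 801 and 821 of this sum, which therefore mostly follows Cck and is no measure of interneuron content. The 6 cortical neuron markers summed to 2190 and 2148 FPKM, with 5 higher and 1 lower. The lower one, Snap25, held 1496 and 1442 FPKM of that sum. The part of these cells in the Faah value was not tested.

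**Figure D3:**
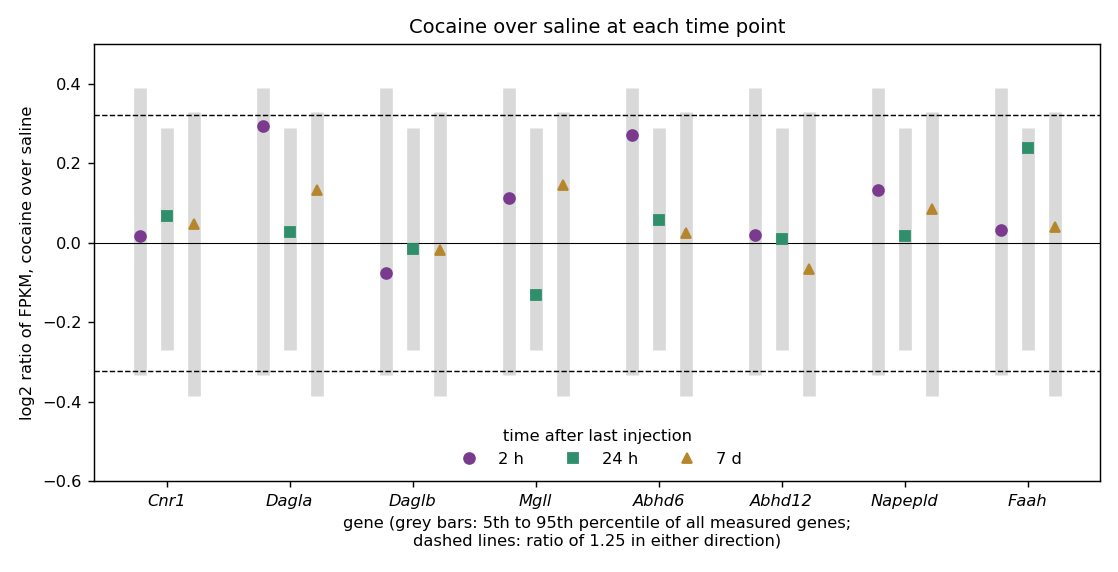
Log2 ratio of cocaine over saline (vertical axis) of each gene at 2 h (circles), 24 h (squares) and 7 d (triangles), without error bars; grey bars give the 5th to 95th percentile of all measured genes at that time, and dashed lines the limits of 25% above and 20% below saline. All 24 points lie within the grey bars and inside the dashed lines, with Dagla and Abhd6 at 2 h (0.29 and 0.27) and Faah at 24 h (0.24) the highest.

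As a group the 8 genes had a median log2 ratio of 0.07 at 2 h, 0.02 at 24 h and 0.04 at 7 d, beside medians of 0.02, 0.01 and -0.01 over all measured genes. Cocaine was above saline for 7, 6 and 6 of the 8 genes. After the median of all genes was taken away, these counts were 5, 6 and 6, with Cnr1 and Abhd12 turning at 2 h. Log2 ratios at 7 d followed transcript length across genes (Spearman's rho 0.466 over 11799 genes, which share the same libraries and are not replicates), against 0.155 at 2 h and 0.085 at 24 h. The longest transcripts of the members run from 1999 nt (Abhd12) to 5807 nt (Cnr1). With the median ratio of genes of like length taken away, 5, 5 and 6 of the 8 genes were above 0, and the sign turned for Cnr1 and Faah at 2 h, Napepld at 24 h, and Cnr1 and Abhd12 at 7 d. In that step Cnr1 at 7 d went from 0.05 to -0.04, Dagla from 0.13 to 0.05, Abhd6 from 0.02 to 0.10 and Abhd12 from -0.07 to 0.00.

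The saline groups of the 3 times offer a further scale for each cocaine value, although the tables were scaled separately and time itself may matter. With each group divided by the median of its genes, 3 members (Dagla, Napepld and Abhd6) were above all 3 saline groups in cocaine at 2 h and 0 below, beside 23.1% and 33.1% of all genes. At 24 h Cnr1 and Faah were above and Mgll and Abhd12 below (22.2% and 24.2% of all genes), and at 7 d Mgll was above and Daglb below (18.4% and 19%). At 2 h the 3 of 8 above is a larger share than that of all genes, and the 0 below a smaller one. With 8 genes read in the same libraries, none of these counts was tested or is read as a result about the members. On the FPKM as deposited, 7, 2 and 1 members were above (29.8%, 28.7% and 13.5% of all genes) and 0, 1 and 2 below (25%, 18.3% and 24.9%), so that the count of 7 at 2 h rests on the scaling. Both counts were made after the values had been seen, the deposited scale first and the median scale second.

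The order of the levels was the same at both ends in each group: Abhd12, then Mgll, and below a middle set Dagla, Daglb and Napepld. Cnr1, Faah and Abhd6 formed the middle set between 20.4 and 27.4 FPKM. Faah was above Cnr1 in 5 of the 6 groups, with saline at 24 h the exception, and Abhd6 was the lowest of the 3 in all but cocaine at 2 h. Dagla and Daglb kept their order in all 6 groups, although their gap at 7 d in saline (12.7 and 11.8 FPKM) was smaller than the spread of either gene over the saline groups.

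The remaining genes of the pathway were read in 5 lists of 43 genes, of which 31 were measured at each time. None was 25% or more above saline at any time, beside 7.09%, 3.93% and 5.33% of all genes. Counts among 31 genes are not read as a result about the lists. At each time 1 gene was 20% or more below saline, 3.23% of the 31, beside 5.32%, 3.38% and 7.8% of all genes. At 2 h and 7 d this gene was Pla2g4e, which makes the precursors of anandamide by N-acylation and had 2.00 FPKM with saline and 1.42 with cocaine at 2 h, 1.37 and 1.46 at 24 h, then 1.45 and 0.98 at 7 d. Its level was low in all groups, and the saline and cocaine ranges overlapped. At 24 h it was Fabp7, a fatty acid carrier of astrocytes, with 42.3 FPKM with saline and 31.2 with cocaine (log2 -0.44). All 4 astrocyte markers were lower as well at that time. At 2 h and 7 d the log2 ratios of Fabp7 were -0.14 and -0.09, whereas all 4 astrocyte markers were higher in cocaine. The part of astrocytes in the Fabp7 value was not tested.

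By role, the inhibitory G proteins and CB1 partners had median log2 ratios of 0.01, 0.00 and -0.01 at 2 h, 24 h and 7 d over 9 genes. Their most abundant gene, Gnao1, the main G protein alpha subunit of neurons, had 187 and 200 FPKM at 2 h, 202 and 206 at 24 h, then 173 and 182 at 7 d. Receptors, Gq proteins and phospholipases upstream of diacylglycerol had medians of 0.07, 0.00 and 0.05 over 9 genes, and Plcb1, the phospholipase with the highest level, had ratios of 0.08, 0.02 and 0.16. In that list Chrm1, the muscarinic M1 receptor, named after its values were seen, had log2 ratios of 0.22, 0.28 and 0.17 (41.0 and 47.8 FPKM at 2 h, 35.3 and 42.8 at 24 h, 30.3 and 34.1 at 7 d). Other N-acylethanolamine enzymes had medians of 0.01, -0.10 and -0.04 over 7 genes, with Gde1, a glycerophosphodiesterase, at 147 and 146, 144 and 146, and 162 and 143 FPKM. Oxidation enzymes and carriers had medians of 0.05, -0.01 and -0.13 over 4 genes, with Fabp5, a carrier of endocannabinoids in the cytosol, at log2 ratios of 0.04, -0.04 and -0.18. Of 8 other receptors and targets 2 were measured, with median log2 ratios of -0.02, 0.14 and -0.06. Ppard, a nuclear receptor, had log2 ratios of 0.23, 0.05 and 0.18. The other, Pparg, was at 2.28 FPKM or less and had -0.28, 0.22 and -0.31, the opposite direction at 2 h and 7 d. Cnr2, the receptor CB2, was at 0.03 to 0.07 FPKM and Trpv1 at 0.03 to 0.06, too low for a ratio to be read.

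**Figure D4:**
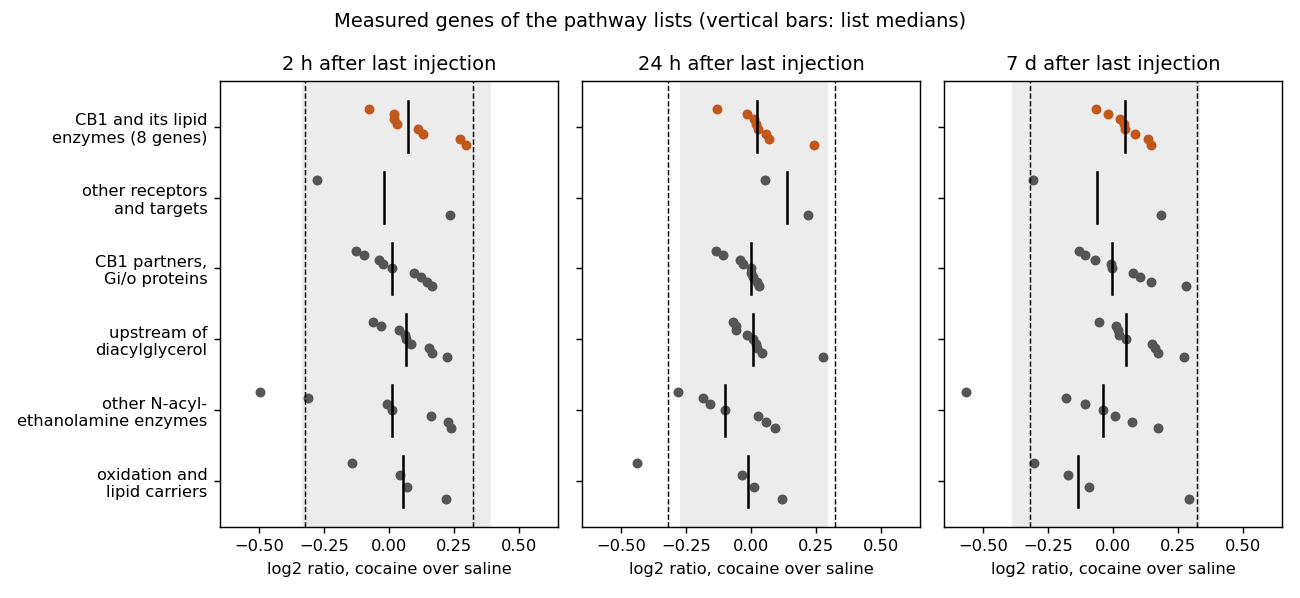
Log2 ratios of cocaine over saline (horizontal axes) of the measured genes in the endocannabinoid set (top row) and in 5 lists of other pathway genes, 1 panel for each time; each point is 1 gene, vertical bars are list medians, grey bands the 5th to 95th percentile of all measured genes, and dashed lines the limits of 25% above and 20% below saline. Points outside the dashed lines are Pla2g4e at 2 h and 7 d (-0.50 and -0.56) and Fabp7 at 24 h (-0.44), with none on the right.

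The genes whose levels over the 6 groups were most like those of a member were found by the distance between log2 FPKM centred on each gene's mean, among 13893 genes. Nearest to Cnr1 were Exoc8 (0.02) and Scamp5 (0.03), and nearest to Dagla were Grasp and Zmiz1 (0.07 each). For Abhd6 they were Cand1 and Kctd1 (0.05 each), for Daglb Gopc and Uvrag (0.05 each), and for Napepld Acox3 (0.03) and D5Ertd579e (0.04). Faah was nearest to Ogt (0.04) and Ftsj3 (0.06), Mgll to Abcb1a (0.02) and Trak2 (0.04), and Abhd12 to Abce1 (0.02) and Mapk8 (0.03). Grasp, which encodes a scaffold of metabotropic glutamate receptors, had 27.6 and 32.7 FPKM in saline and cocaine at 2 h, 25.8 and 25.9 at 24 h, then 20.4 and 21.6 at 7 d: like Dagla, it was highest with cocaine at 2 h and lowest with saline at 7 d. With 6 points for each gene, such nearness among so many genes is a description only.

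The labelled tissue was checked with markers. Slc17a7, the vesicular glutamate transporter of cortical excitatory neurons, was at 466 to 532 FPKM, and the 6 cortical neuron markers were all measured. Of the striatal markers, Drd2 was at 0.15 to 0.23 FPKM and Drd1a at 0.65 to 0.92, whereas Ppp1r1b was at 46.4 to 57.7 and Penk at 60.2 to 68.5. At low levels, 2 further striatal markers were past a limit at 2 h and 7 d, Adora2a above (1.02 and 1.35 FPKM at 2 h, 0.80 and 1.35 at 7 d) and Rgs9 below (1.87 and 1.37, then 2.41 and 1.84). Ttr, a marker of choroid plexus, was at 1.90 and 0.46 FPKM in saline and cocaine at 2 h, 1.801 and 1.10 at 24 h, then 0.28 and 6.54 at 7 d. The other choroid plexus markers had the opposite direction at some times: Folr1 was at 0.67 and 0.29 FPKM at 7 d, and Kl at 0.41 and 0.51 at 2 h. The 4 hemoglobin genes, all past the upper limit at 2 h, summed to 322 and 502 FPKM at 2 h, 457 and 502 at 24 h, then 451 and 528 at 7 d. Among olfactory bulb markers Doc2g was at 5.83 to 6.71 FPKM in the 6 groups, Th at 0.11 to 0.43 and Eomes at or below 0.03. Emx1, a marker of cortical neurons, had 19.95 and 13.8 FPKM in saline and cocaine at 2 h, the time of the highest Dagla and Abhd6 ratios. The 6 cortical neuron markers then summed to 2142 and 2053, of which Snap25 held 1479 and 1385, with 3 higher and 3 lower. The part of blood, choroid plexus, striatal, olfactory bulb and cortical neuron content in the values of the 8 genes was not tested.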

How the data were processed

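RNA was measured in 12 libraries of 6 groups. Per the methods, adaptors and poor bases were removed, alignment was by TopHat2, and reads with more than 1 position were dropped before Cufflinks. The submitters' processing notes name Trimmomatic 0.32, TopHat2 2.0.12, Cufflinks 2.2.1, Cuffdiff and GRCm38, whereas the methods name cutadapt, an earlier Cufflinks and mm9. Of the named genes matched by symbol, 99.8 to 99.9% overlapped that gene in GRCm38 and 15.7% in NCBIM37. The authors deposited 1 table per time point with an FPKM for each group, pooled over its libraries and scaled within the table, and their own fold changes, test statistics, p values and q values, which were not used. The first value column, headed C and the time, was read as saline: the descriptions of the samples use C for cocaine, but the study's tables head nearly the same values for the same genes as saline. The labels give reads of 75 nt and 6 libraries, and the methods 100 nt. How many fragments lie behind a value is not given by FPKM, so no counting error is stated.

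Ratios were computed in Python 3.11.15 with pandas 2.3.3 and numpy 2.4.6, without a pseudocount. A name on several loci took the longest. A ratio of 1.25 was set as a rule of size, not a test. Transcript length was that of the longest coding transcript of the same symbol (GENCODE M1), found for 84.5 to 85.1% of measured genes, in 20 groups of length. The ratio and length steps were tested on simulated data. The members and lists were chosen with earlier results of these data known, and the comparison with all saline groups and the promoters to print were chosen after the values were seen; for that comparison, scaling by group medians replaced the deposited scale once the latter's count was known. The rule named all members, pathway list genes past the fold or most abundant in their list, and the 2 genes nearest to each member. Chrm1, Pparg, Cnr2 and Trpv1 were added after their values were seen, and marker genes are named as tissue checks. Alternatives were a pseudocount of 1, centring, other folds and filters, other choices of locus and removal of the length trend. One list of cell markers is not reported here.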

Additional observations from a re-analysis of the deposited data

How the results depend on the processing

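No paired analysis was possible because each deposited FPKM is pooled over both libraries of a group; for the same reason no library was left out. All 143 ratios of single members under a pseudocount of 1, centring, removal of the length trend, another choice of locus, loci of 1 gene, or loci without a failed estimate (chosen after seeing the data; Dagla at 7 d then has no value) stayed within 0.1 of the main log2 value, and so did the medians of the members. This width is larger than those medians (0.07, 0.02 and 0.04) and many of the ratios, so it does not show that a sign was kept. The steps on choice of locus, loci of 1 gene and failed estimates could not move a kept ratio, since each locus used held 1 name. The only second locus, that of Abhd6 at 24 h, had the lower level. Centring took the same median from all members at a time (0.02, 0.01 and -0.01 at 2 h, 24 h and 7 d), in size always below 0.1. Signs did turn under centring and removal of the length trend, as given above. The count of members past the fold was 0 throughout, except that at a fold of 1.2 it was 2 at 2 h (Dagla and Abhd6), beside 10.5% of all genes higher and 7.34% lower at that fold and time. On FPKM as deposited, cocaine at 2 h exceeded all saline groups for 7 members (29.8% of all genes) and fell below them for 0 (25%). The 24 h counts were 2 members above (28.7%) and 1 below (18.3%). For 7 d, 1 member was above (13.5%) and 2 were below (24.9%).

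The shares of all genes past the fold moved more, given here as percent higher and lower. At a fold of 1.5 they were 2.06 and 1.52 at 2 h, 1.35 and 1.03 at 24 h, then 1.21 and 1.73 at 7 d. A fold of 1.2 gave 5.94 and 5.16 at 24 h and 8.47 and 11.8 at 7 d. Without a filter on low values they were 14 and 14.8 at 2 h, 12.2 and 13.3 at 24 h, then 14.3 and 15.8 at 7 d. With a mean FPKM of at least 5 they were 4.27 and 2.17 at 2 h, 2.24 and 1.24 at 24 h, and 2.56 higher at 7 d. A pseudocount of 1 gave 4.71 and 3.16 at 2 h and 3.02 higher at 7 d. Without the length trend, 2.5 were higher at 24 h and 3.36 lower at 7 d.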
